A study of Mus musculus with 35 samples.

Results

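The libraries described here are the day 7 populations that carried MT194, a point mutant of mouse NELFB, or an empty vector (EV), after adenoviral Cre had deleted the remaining endogenous Nelfb allele. They were chosen by the labels as the Ad-Cre populations with MT194 (MT194-Cre, n = 2) and with EV (EV-Cre, n = 2), and make up 4 of the 35 libraries of the series, which comprise 20 populations and 15 stable clones. All 4 came from immortalized mouse embryonic fibroblasts (iMEFs) with one null and one floxed Nelfb allele (Nelfb flox/-) that had been infected with a pLenti vector, selected in G418 and kept as populations, not as single clones. In MT194-Cre the vector expressed C-terminally flag-tagged NELFB with the MT194 substitutions from a CMV promoter. Both groups received Ad-Cre-GFP and were harvested 7 days later. For reference, the EV populations given Ad-GFP (EV-GFP, n = 2), which keep the floxed allele, the wild-type NELFB populations given Ad-Cre (WT-Cre, n = 2) and the MT194 populations given Ad-GFP (MT194-GFP, n = 2) were also measured. Every group thus had one null allele, a lentiviral vector and an adenoviral infection. Replicate 1 and replicate 2 mark 2 independent experiments, called experiment 1 and experiment 2 below, and EV-Cre and MT194-Cre were paired within an experiment. The comparison asks which genes and pathways the mutant restores in place of the deleted allele.

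NELFB is a subunit of the negative elongation factor (NELF), a complex that holds RNA polymerase II (Pol II) shortly after initiation, a step known as promoter-proximal pausing, until the kinase P-TEFb releases it. Transcript counts do not show the stability of the NELF proteins, which depends on the assembled complex. MT194 is one of a set of alanine-substitution mutants made to separate NELFB from its partners in the complex. In fibroblasts, genes of sterol and lipid synthesis respond to the SREBP factors, cystine import and glutathione use respond to NRF2 and ATF4, and cell division genes follow the fraction of cells in cycle.

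The 4 libraries held 21011317 and 22894317 reads on genes in EV-Cre and 24644148 and 24873566 in MT194-Cre. Levels are given as CPM, the reads of a gene scaled to a common library total after TMM normalisation, with experiment 1 first, and are not divided by gene length. Nelfb itself (mm10, chromosome 2 from 25199712 to 25211489) was measured first, as a check of the labels. Its level was 7.97 and 5.46 CPM in EV-Cre and 104 and 119 CPM in MT194-Cre. In EV-GFP it was 46.1 and 39.5 CPM, in MT194-GFP 74.0 and 62.1 CPM and in WT-Cre 75.9 and 60.5 CPM. Both MT194-Cre libraries therefore lay above all libraries of the other 4 groups, and both EV-Cre libraries below them (log2 fold change 4.05, SE 0.19, adjusted p = 3.93e-08, and 2.33e-06 without the block). The counts are summed over the gene and separate neither the deleted exons nor the ectopic transcript, so they do not measure the mutant protein. Transcripts of the other NELF subunits did not pass the test: Nelfa had a log2 fold change of 0.061 (adjusted p = 0.703), Nelfcd of 0.14 (adjusted p = 0.405) and Nelfe of 0.24 (adjusted p = 0.13) by edgeR. Actb, the cytoplasmic actin, stood at 1853 and 1357 CPM in EV-Cre and 1701 and 1508 CPM in MT194-Cre (log2 fold change 0.013, adjusted p = 0.955).

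The libraries expressed fibroblast genes. The marker levels in this paragraph, and those of the leukocyte markers below, are CPM of all reads on genes without TMM scaling. Of 9 fibroblast markers 8 passed the filter on low counts, with a summed level of 22606 and 30951 CPM in EV-Cre and 24665 and 36844 CPM in MT194-Cre, most of it from Fn1, fibronectin. Thy1, a surface marker of many fibroblasts, was nearly absent, at 0.0476 and 0 CPM in EV-Cre and 0.122 and 0.0804 CPM in MT194-Cre. Epithelial markers summed to 0.761 and 0.612 CPM in EV-Cre and 0.284 and 0.161 CPM in MT194-Cre, with Cdh1 the most abundant. Endothelial markers summed to 1.14 and 1.09 CPM and 0.487 and 1.05 CPM in the same order, with Kdr the most abundant over the groups and Emcn at 0. Skeletal muscle markers (Des the most abundant; Myod1, Myog and Ckm at 0) and pluripotency markers (Nanog the most abundant; Pou5f1 and Zfp42 at 0) stayed below 1 CPM in sum in each of the 4 libraries. Of the adipocyte markers, Fabp4 had 72.8 and 41.3 CPM in EV-Cre and 79.2 and 55.9 CPM in MT194-Cre, and Lep was at 0. Of the neural markers, Nes, which dividing fibroblasts in culture can also express, had 83.8 and 83.1 CPM and 103 and 127 CPM, and Sox2 was at or below 0.0476 CPM. In bulk libraries such as these, fewer cells of a type and less RNA per cell cannot be told apart.

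Of 13805 genes tested, 431 were higher in MT194-Cre than in EV-Cre (3.12% of all genes tested) and 427 were lower (3.09%), or 6.22% in either direction. A call required an absolute log2 fold change above 0.5 together with an adjusted p below 0.05. The fit was edgeR's quasi-likelihood test over the 20 populations with the experiment as a block. Besides the groups above, these were populations with the NELFB mutants labelled MT486 and DMT after either virus, and with wild-type NELFB after Ad-GFP. All 858 genes differed in the same direction in both experiments, beside 9491 of the 13805 genes tested. A call in the paired fit all but requires this, so it is no separate support. Among the 858 genes, 103 were more than 2-fold higher and 149 more than 2-fold lower. The calls depended on the pairing. Without the block, 11 genes were called higher and 20 lower, and without the block on the 4 libraries alone, an alternative chosen after seeing the data, none was called, with 549 genes at an unadjusted p under 0.05. Of the members of the 21 gene lists described below, 108 of 526 were called with the block and 10 without it, where 145 had an unadjusted p under 0.05. The adjusted p without the block is therefore given beside the leading genes. Among the 105 genes named here and below, 90 were called in the main fit, so that only these 90 could lose a call. Leaving out EV-Cre replicate 2 lowered the calls to 147 higher and 179 lower, and 289 of the 858 calls were then made again. Of 105 genes named here and below, 38 lost their call without EV-Cre replicate 2, 25 without EV-Cre replicate 1, 23 without MT194-Cre replicate 1 and 13 without MT194-Cre replicate 2.

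**Figure D1:**
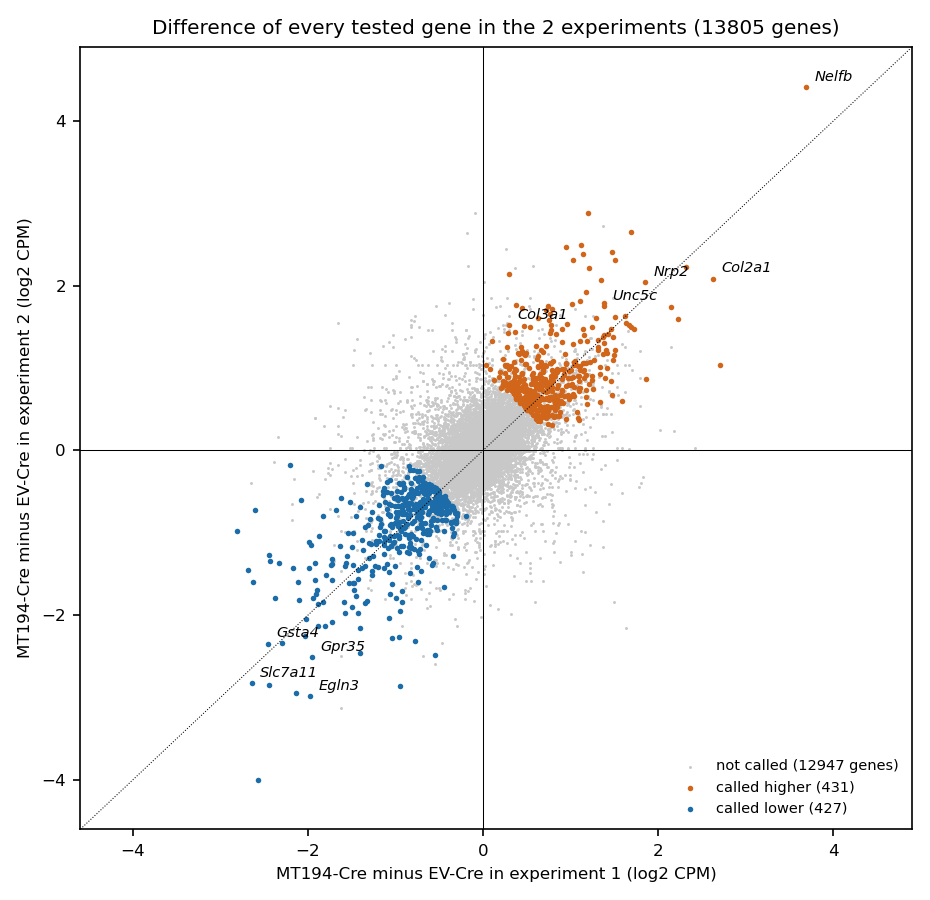
Each point is one of 13805 genes; the x axis gives its difference between MT194-Cre and EV-Cre in log2 CPM in experiment 1 and the y axis the same in experiment 2, with the dotted line marking equality. Genes called higher (orange, 431) and lower (blue, 427) lie to the upper right and lower left of the origin, with Nelfb farthest to the upper right.

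Most cholesterol synthesis genes rose in MT194-Cre but stayed far below their level in cells with the floxed allele. Of 20 enzymes from acetyl-CoA to cholesterol, 13 were called, each higher (65%, beside 3.12% of all genes). All 20 had a log2 fold change above 0, with a median of 0.90 against 0.0082 over all genes. The summed level of the 20 was 3765 and 4865 CPM in EV-GFP, 556 and 640.3 CPM in EV-Cre, 1258 and 1030.5 CPM in MT194-Cre and 2660.2 and 2949.7 CPM in WT-Cre. The MT194-Cre libraries lay between the other groups in both experiments and overlapped with none of them. The median difference was 1.09 in experiment 1 and 0.66 in experiment 2.

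Hmgcs1, the synthase that makes HMG-CoA, had 57.8 and 38.3 CPM in EV-Cre and 155 and 77.0 CPM in MT194-Cre (log2 fold change 1.24, SE 0.18, adjusted p = 0.000837, and 0.272 without the block). In EV-GFP its level was 562 and 457 CPM and in WT-Cre 352 and 295 CPM, and the separation of MT194-Cre from EV-Cre was wider in experiment 1 than in experiment 2. Nsdhl, a decarboxylating dehydrogenase of the late pathway, had 11.8 and 11.6 CPM in EV-Cre and 29.7 and 23.6 CPM in MT194-Cre (log2 fold change 1.20, SE 0.16, adjusted p = 0.000315, and 0.0274 without the block). Fdft1, squalene synthase, had 22.7 and 17.7 CPM in EV-Cre and 62.7 and 31.8 CPM in MT194-Cre (log2 fold change 1.20, SE 0.23, adjusted p = 0.00627, and 0.175 without the block). In each of these genes both MT194-Cre libraries were above both EV-Cre libraries, which their choice among the largest called changes made likely.

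The genes that control sterol uptake and export did not move as one. Of 14 tested regulators and carriers, 5 were called, each higher (35.7%, beside 3.12% of all genes), among them Srebf2, Insig1 and Stard4. The median of the 14 was -0.015, and 8 of those not called had a log2 fold change below 0. Srebf2, a precursor of the SREBP factors, had 131 and 151 CPM in EV-Cre and 262 and 298 CPM in MT194-Cre (log2 fold change 0.99, SE 0.12, adjusted p = 0.0001, and 0.162 without the block). Insig1, which retains the SREBP precursor in the endoplasmic reticulum, had 19.1 and 16.2 CPM in EV-Cre and 45.5 and 27.2 CPM in MT194-Cre (log2 fold change 1.04, adjusted p = 0.0188, 0.122 without the block). Stard4, a cholesterol transfer protein, had 20.3 and 12.1 CPM in EV-Cre and 45.8 and 20.3 CPM in MT194-Cre (log2 fold change 0.99, adjusted p = 0.00333, 0.487 without the block).

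The sterol regulatory element, the site that SREBP factors bind, was looked for as TCACNCCAC on both strands of the RefSeq promoters (GRCm38.p6, 250 bases before to 50 after each start), because the enzymes moved together. It was found in 1 of the 15 enzymes with a promoter in the table and in none of the 10 regulators, beside 1.44% of all 27025 genes with a promoter. The match lay 137 bases before the start of Hmgcs1 (chr13:119690204-119690232, plus strand) and is shown with its neighbouring bases, the motif in capitals.
Hmgcs1: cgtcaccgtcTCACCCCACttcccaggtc
A match of letters is a description of this window and no evidence of binding.

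Part of the fatty acid synthesis and desaturation genes rose too. Of 14 tested, 7 were called, each higher (50%, beside 3.12% of all genes). The list's median was 0.52, and the median difference was 0.58 in experiment 1 and 0.47 in experiment 2. Scd1, the stearoyl-CoA desaturase, had 53.4 and 62.6 CPM in EV-Cre and 115 and 123 CPM in MT194-Cre (log2 fold change 1.04, SE 0.11, adjusted p = 2.55e-05, and 0.0929 without the block), against 362 and 521 CPM in EV-GFP. Elovl6, which lengthens saturated fatty acids, had 56.3 and 62.7 CPM in EV-Cre and 107 and 124 CPM in MT194-Cre (log2 fold change 0.95, adjusted p = 0.000241, 0.213 without the block). Fads2, a desaturase of polyunsaturated fatty acids, and Acsl3, an acyl-CoA synthetase, had log2 fold changes of 0.78 and 0.74 (adjusted p = 0.000151 and 0.000209, and 0.352 and 0.455 without the block). Fasn, the fatty acid synthase, had 282 and 301 CPM in EV-Cre and 423 and 363 CPM in MT194-Cre, and its log2 fold change of 0.43 (adjusted p = 0.00808) was under the 0.5 required.

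Genes of mitochondrial metabolism showed small differences. Of 60 tested subunits of the respiratory chain, 53 had a log2 fold change above 0 and the median was 0.25, with 0.23 in experiment 1 and 0.26 in experiment 2, but 2 passed the test (3.33%, near the 3.12% of all genes). These were Ndufb11, of complex I, with 36.9 and 33.6 CPM in EV-Cre and 52.6 and 50.7 CPM in MT194-Cre (log2 fold change 0.55, SE 0.088, adjusted p = 0.000765, and 0.122 without the block), and Cox5b, of complex IV, with 18.6 and 15.8 CPM in EV-Cre and 26.0 and 23.4 CPM in MT194-Cre (log2 fold change 0.53, SE 0.10, adjusted p = 0.00357, and 0.139 without the block). In the list of the citrate cycle and pyruvate dehydrogenase, 1 of 22 was called (4.55%, beside 3.12% of all genes), Idh2, the NADP-dependent isocitrate dehydrogenase (chosen after its values were seen; log2 fold change 0.53, adjusted p = 0.00155). Sdha, of complex II, one of its most abundant members, stood at 208 and 201 CPM in EV-Cre and 265 and 301 CPM in MT194-Cre (log2 fold change 0.47, adjusted p = 0.000987), below the threshold of 0.5. Of 20 genes of fatty acid oxidation, edgeR called none, 4 had an unadjusted p below 0.05, and DESeq2 called 0 higher and 0 lower. Cpt1a, which admits fatty acids to mitochondria, had a log2 fold change of -0.05 (adjusted p = 0.743).

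Genes of mitosis had higher levels in MT194-Cre, and the number that passed differed between tools. All 28 tested members of the G2/M list had a log2 fold change above 0, with a median of 1.07. Of the 28, 26 had an unadjusted p under 0.05, and 4 were called by edgeR (14.3%, beside 3.12% of all genes). DESeq2 called 21, and edgeR called none without the block, where 25 had an unadjusted p under 0.05. Plk1, the mitotic polo-like kinase, had 28.2 and 14.9 CPM in EV-Cre and 76.0 and 40.0 CPM in MT194-Cre (log2 fold change 1.42, SE 0.37, adjusted p = 0.0299, and 0.183 without the block). Both MT194-Cre libraries lay above both EV-Cre libraries, and experiment 1 lay above experiment 2 in each group. Ccnb1 and Ccnb2, the B-type cyclins, had log2 fold changes of 1.47 and 1.33 (adjusted p = 0.0366 and 0.0353, and 0.183 and 0.262 without the block), and Aurka, an Aurora kinase of the spindle poles, 1.08 (0.0453, and 0.32 without the block). All 28 genes were also above 0 in MT194-GFP against EV-GFP, with a median of 0.25. The median of the list in EV-Cre against EV-GFP was -0.26 in experiment 1 and -1.48 in experiment 2.

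Genes of DNA replication followed with smaller values. All 43 tested had a log2 fold change above 0, the median was 0.47, and 3 were called by edgeR (6.98%, beside 3.12% of all genes) and 8 by DESeq2, and none without the block (7 at an unadjusted p under 0.05 by edgeR). The median difference was 0.57 in experiment 1 and 0.23 in experiment 2, and 0.23 in MT194-GFP against EV-GFP. Rrm1, the large subunit of ribonucleotide reductase, had 136 and 95.1 CPM in EV-Cre and 290.5 and 170.3 CPM in MT194-Cre (log2 fold change 0.99, SE 0.26, adjusted p = 0.0304, and 0.2 without the block). Gins2, of the replicative helicase, and Pola1, of DNA polymerase alpha, had log2 fold changes of 0.83 and 0.71 (adjusted p = 0.0178 and 0.0351, and 0.439 and 0.309 without the block). Relative to EV-GFP, the median of the replication list in MT194-Cre was 0.71 in experiment 1 and -0.076 in experiment 2.

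Some targets of Trp53 fell. Of 19 tested, 6 were called, each lower (Cdkn1a, Plk2, Gadd45a, Btg2, Mdm2 and Tnfrsf10b), beside 3.09% of all genes. Cdkn1a, the inhibitor of cyclin-dependent kinases known as p21, had 78.8 and 50.7 CPM in EV-Cre and 37.2 and 18.2 CPM in MT194-Cre (log2 fold change -1.23, SE 0.24, adjusted p = 0.00685, and 0.136 without the block). MT194-Cre was below EV-Cre in each experiment, and its level in EV-GFP was 15.3 and 12.1 CPM. Plk2, a polo-like kinase induced by stress, had 273 and 237 CPM in EV-Cre and 124 and 106 CPM in MT194-Cre (log2 fold change -1.14, SE 0.10, adjusted p = 4.07e-06, and 0.00388 without the block). Plk2 thus lay between EV-Cre and EV-GFP, where it had 61.2 and 52.5 CPM. Gadd45a and Btg2, both growth-arrest genes, had log2 fold changes of -0.60 and -0.55 (adjusted p = 0.00202 and 0.00438, and 0.351 and 0.381 without the block).

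**Figure D2:**
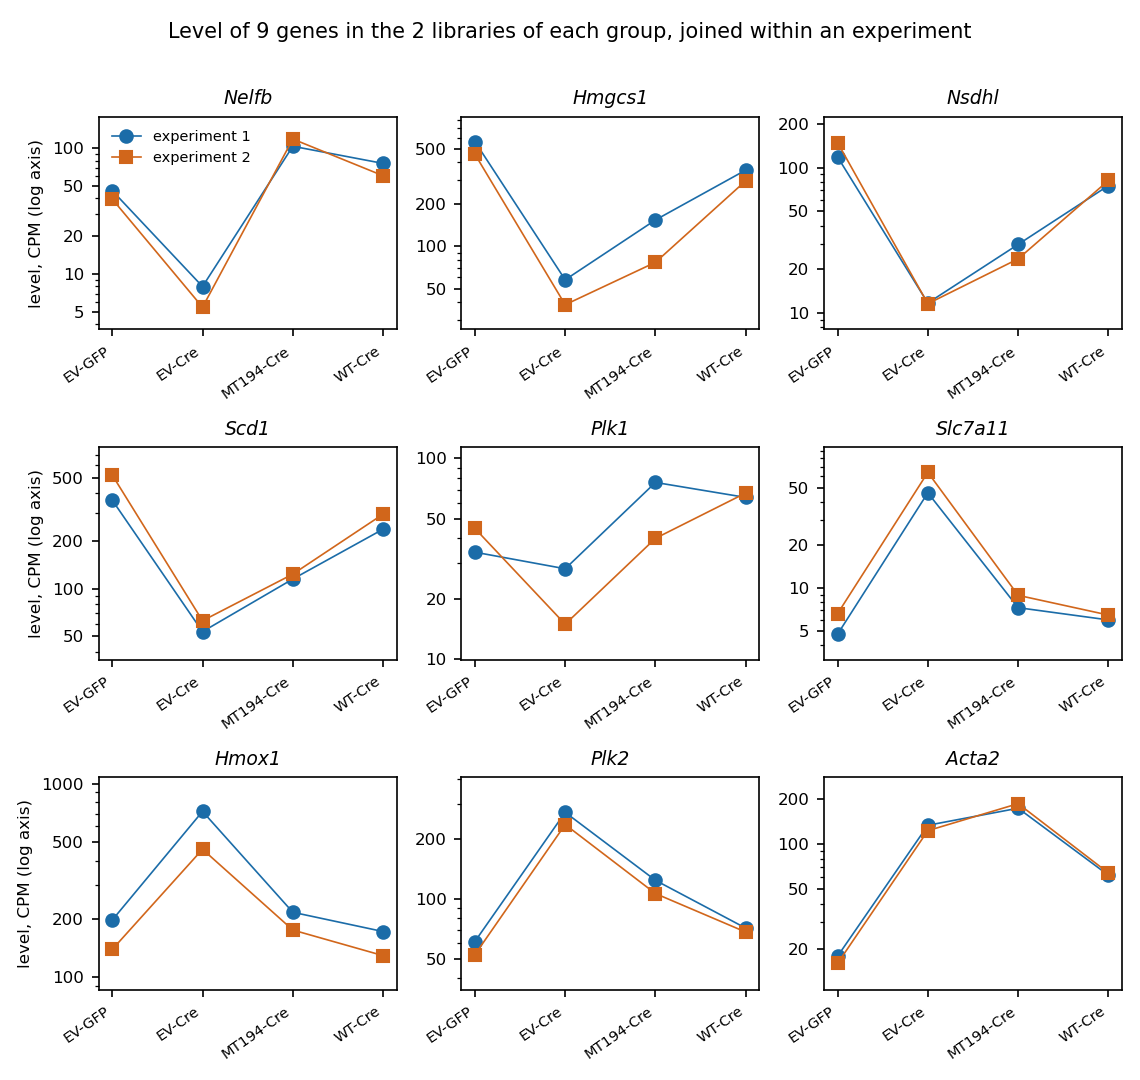
CPM on log axes for 9 genes in the EV-GFP, EV-Cre, MT194-Cre and WT-Cre libraries; circles are experiment 1, squares experiment 2, and lines join the libraries of an experiment. Hmgcs1, Nsdhl and Scd1 lie between EV-Cre and EV-GFP in MT194-Cre, Slc7a11 and Hmox1 lie close to EV-GFP, and Acta2 lies above EV-Cre.

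Genes of the antioxidant response were among the largest decreases. Of 17 tested NRF2 target genes 8 were called, each lower (47.1%, beside 3.09% of all genes). These were Nqo1, Hmox1, Gclc, Gclm, Txnrd1, Slc7a11, Srxn1 and Gsta4. The list's median was -0.47, with -0.51 in experiment 1 and -0.47 in experiment 2. Slc7a11, the cystine-glutamate exchanger that supplies cysteine for glutathione (mm10, chromosome 3 from 49892526 to 50443614), had 46.1 and 63.9 CPM in EV-Cre and 7.30 and 8.91 CPM in MT194-Cre (log2 fold change -2.75, SE 0.29, adjusted p = 0.00019, and 0.0401 without the block). Its level in EV-GFP was 4.77 and 6.63 CPM, so that both MT194-Cre libraries lay within a few CPM of cells with the floxed allele. Gsta4, a glutathione transferase of lipid aldehydes, had 65.3 and 42.5 CPM in EV-Cre and 11.8 and 8.28 CPM in MT194-Cre (log2 fold change -2.41, SE 0.23, adjusted p = 4.19e-05, and 0.00388 without the block), against 8.11 and 7.85 CPM in EV-GFP. Hmox1, the haem oxygenase, had 718 and 458 CPM in EV-Cre and 216 and 175 CPM in MT194-Cre (log2 fold change -1.57, SE 0.19, adjusted p = 0.000288, and 0.0564 without the block). Srxn1, the sulfiredoxin that repairs peroxiredoxins, had 173 and 111 CPM in EV-Cre and 79.4 and 56.1 CPM in MT194-Cre (log2 fold change -1.05, adjusted p = 0.000895, 0.262 without the block). In all 4 genes the groups did not overlap, which their choice as the called members with the largest changes made likely. Gsta3, another glutathione transferase outside the list, had 9.91 and 8.15 CPM in EV-Cre and 2.80 and 2.79 CPM in MT194-Cre (log2 fold change -1.69, SE 0.22, adjusted p = 0.000151, and 0.0401 without the block); close relatives of this gene share sequence, so its count is uncertain.

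Part of the genes of the ATF4 response fell in the same libraries. Of 19 tested, 10 were called, each lower (52.6%, beside 3.09% of all genes), with a median of -0.50. Trib3, a pseudokinase induced by ATF4, had 36.3 and 46.9 CPM in EV-Cre and 14.4 and 13.1 CPM in MT194-Cre (log2 fold change -1.61, SE 0.25, adjusted p = 0.00148, and 0.0442 without the block). Ddit3, the stress factor CHOP, had 57.7 and 46.1 CPM in EV-Cre and 29.6 and 22.0 CPM in MT194-Cre (log2 fold change -1.01, SE 0.10, adjusted p = 2.55e-05, and 0.0806 without the block), and MT194-Cre lay below its level in EV-GFP (36.9 and 28.6 CPM) in each experiment. Vldlr, a lipoprotein receptor, and Sesn2, a sestrin that responds to amino acid stress, had log2 fold changes of -1.09 and -0.84 (adjusted p = 0.00228 and 0.00389, and 0.463 and 0.214 without the block). Slc7a11 is also known as an ATF4 target, so the 2 lists are not separate in kind.

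Some hypoxia and glycolysis genes fell as well. Of 24 tested, 12 were called, each lower (50%, beside 3.09% of all genes). The list's median was -0.55, with -0.56 in experiment 1 and -0.42 in experiment 2. Egln3, a prolyl hydroxylase that marks HIF for degradation and is itself induced by HIF, had 5.32 and 4.05 CPM in EV-Cre and 1.29 and 0.433 CPM in MT194-Cre (log2 fold change -2.42, SE 0.33, adjusted p = 0.000209, and 0.0616 without the block). Vegfa, the vascular growth factor, had 607 and 987 CPM in EV-Cre and 269 and 556 CPM in MT194-Cre (log2 fold change -0.99, SE 0.13, adjusted p = 0.000195, and 0.554 without the block), with higher levels in experiment 2 in both groups. Ankrd37, an ankyrin-repeat gene induced by HIF, had 6.13 and 8.99 CPM in EV-Cre and 4.09 and 3.42 CPM in MT194-Cre (log2 fold change -0.97, adjusted p = 0.00535, 0.218 without the block). Gapdh, the glycolytic dehydrogenase, kept only 6.35 and 12.3 CPM in EV-Cre and 3.22 and 5.15 CPM in MT194-Cre (log2 fold change -1.13, adjusted p = 0.000825, 0.568 without the block), and since processed copies of Gapdh are known in the mouse genome and reads of low mapping quality were removed, its count is uncertain. Car9, a carbonic anhydrase also induced by HIF and found among the 12 largest decreases, had 8.69 and 18.0 CPM in EV-Cre and 1.93 and 5.87 CPM in MT194-Cre (log2 fold change -1.82, SE 0.33, adjusted p = 0.00333, and 0.328 without the block).

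Some immediate early genes and feedback genes of the ERK pathway fell. Of 31 tested, 11 were called, each lower (35.5%, beside 3.09% of all genes). The list's median was -0.56, with -0.55 in experiment 1 and -0.50 in experiment 2. Fosb, an AP-1 factor, had 14.7 and 11.3 CPM in EV-Cre and 4.81 and 3.08 CPM in MT194-Cre (log2 fold change -1.73, SE 0.45, adjusted p = 0.0298, and 0.296 without the block). Fosl1, another AP-1 factor, had 12.9 and 7.44 CPM in EV-Cre and 4.24 and 2.74 CPM in MT194-Cre (log2 fold change -1.52, SE 0.23, adjusted p = 0.000454, and 0.0975 without the block). Dusp4, a phosphatase of ERK, had 31.2 and 24.0 CPM in EV-Cre and 12.5 and 9.63 CPM in MT194-Cre (log2 fold change -1.31, SE 0.17, adjusted p = 0.000167, and 0.0736 without the block), against 6.19 and 4.78 CPM in EV-GFP. Atf3, a stress-induced factor of the ATF family, had 37.8 and 22.5 CPM in EV-Cre and 16.3 and 8.38 CPM in MT194-Cre (log2 fold change -1.30, adjusted p = 8.04e-05, 0.285 without the block). The MT194-Cre levels of Dusp4 and Atf3 lay between those of EV-Cre and EV-GFP in both experiments.

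The kinases of the PI3K-AKT and RAF-MEK-ERK pathways differed little at the transcript level. Of 30 tested, 1 was called (3.33%, near the 3.09% of all genes called lower), Map2k1, the kinase MEK (chosen after its values were seen; log2 fold change -0.51, adjusted p = 0.00296, 0.571 without the block; DESeq2 did not call it, with a log2 fold change just under the 0.5 required), and the median was -0.084. Pik3r1, a regulatory subunit of PI3K, had 307 and 250.1 CPM in EV-Cre and 322 and 312 CPM in MT194-Cre (log2 fold change 0.20, adjusted p = 0.2), and Akt1 had 254 and 229.9 CPM in EV-Cre and 264 and 225 CPM in MT194-Cre (log2 fold change 0.0099, adjusted p = 0.954). EdgeR called none of 26 pausing and elongation factors, of which 8 had an unadjusted p below 0.05, and DESeq2 called 0 higher and 0 lower. Supt5, of the DSIF complex that acts with NELF, had a log2 fold change of -0.039 (adjusted p = 0.757).

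YAP/TEAD targets and secreted signals were lower in part. Of 14 YAP/TEAD targets 3 were called, each lower (21.4%, beside 3.09% of all genes). Cyr61, a matricellular protein, had 837 and 1789 CPM in EV-Cre and 427 and 1121 CPM in MT194-Cre (log2 fold change -0.80, SE 0.23, adjusted p = 0.0376, and 0.818 without the block), and the groups overlapped, with MT194-Cre lower within each experiment. Ankrd1, a nuclear ankyrin-repeat protein, had 43.3 and 30.2 CPM in EV-Cre and 23.8 and 18.966 CPM in MT194-Cre (log2 fold change -0.77, adjusted p = 0.00663, 0.411 without the block), and Lats2, a kinase that restrains YAP, had 177 and 171 CPM in EV-Cre and 111 and 129 CPM in MT194-Cre (log2 fold change -0.53, adjusted p = 0.0322, 0.365 without the block). Of 23 chemokines and cytokines 6 were called lower (26.1%, beside 3.09% of all genes) and 1 higher (4.35%, near the 3.12% of all genes). The higher one was Ccl5, a chemokine of T cells, named after its values were seen, with a log2 fold change of 0.60. The median of the list was -0.60 in experiment 1 but -0.014 in experiment 2. Il6, interleukin-6, had 180.4 and 285 CPM in EV-Cre and 72.6 and 152 CPM in MT194-Cre (log2 fold change -1.07, SE 0.22, adjusted p = 0.01, and 0.203 without the block), and Lif, a cytokine of the same family, had 69.6 and 88.4 CPM in EV-Cre and 39.9 and 42.9 CPM in MT194-Cre (log2 fold change -0.93, adjusted p = 0.0355, 0.202 without the block). Cxcl2, a neutrophil chemokine, and Csf3, the granulocyte growth factor, had log2 fold changes of -0.85 and -1.11 (adjusted p = 0.000637 and 0.0438, and 0.412 and 0.437 without the block).

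Of 35 interferon-stimulated genes 4 were called, each lower (11.4%, beside 3.09% of all genes), with a median of -0.38. The list also had lower levels with MT194 in the cells that kept the floxed allele. There MT194-GFP against EV-GFP gave a median of -0.58 and 1 of 35 genes above 0. In that comparison 1 gene of the list was called, lower, beside 0.0507% of all genes. Oas3, an oligoadenylate synthetase that senses double-stranded RNA, had 3.92 and 4.80 CPM in EV-Cre and 1.85 and 0.915 CPM in MT194-Cre (log2 fold change -1.66, SE 0.32, adjusted p = 0.00281, and 0.189 without the block). Oas2 and Oas1b, of the same family, and Mx2, an antiviral GTPase, had log2 fold changes of -1.004, -0.76 and -0.78 (adjusted p = 0.0369, 0.00323 and 0.02, and 0.472, 0.369 and 0.262 without the block); near-identical relatives make the counts of these families uncertain. Oas2 in MT194-Cre ranged from 3.94 to 8.86 CPM, which came close to the lower EV-Cre library. The 5 leukocyte markers, of which 2 passed the filter on low counts, summed, without TMM scaling, to 7.38 and 8.69 CPM in EV-Cre and 3.77 and 4.66 CPM in MT194-Cre. Nearly all of this sum came from Cd68 and Csf1r, and Csf1r had 3.09 and 3.71 CPM in EV-Cre and 1.38 and 1.57 CPM in MT194-Cre. Cd68, the most abundant, had 4.28 and 4.94 CPM and 2.35 and 3.02 CPM in that order, while Ptprc, the marker that defines leukocytes, and Adgre1 were at or below 0.0437 CPM in these 4 libraries and Cd3e was at 0. Their part in the result was not tested.

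**Figure D3:**
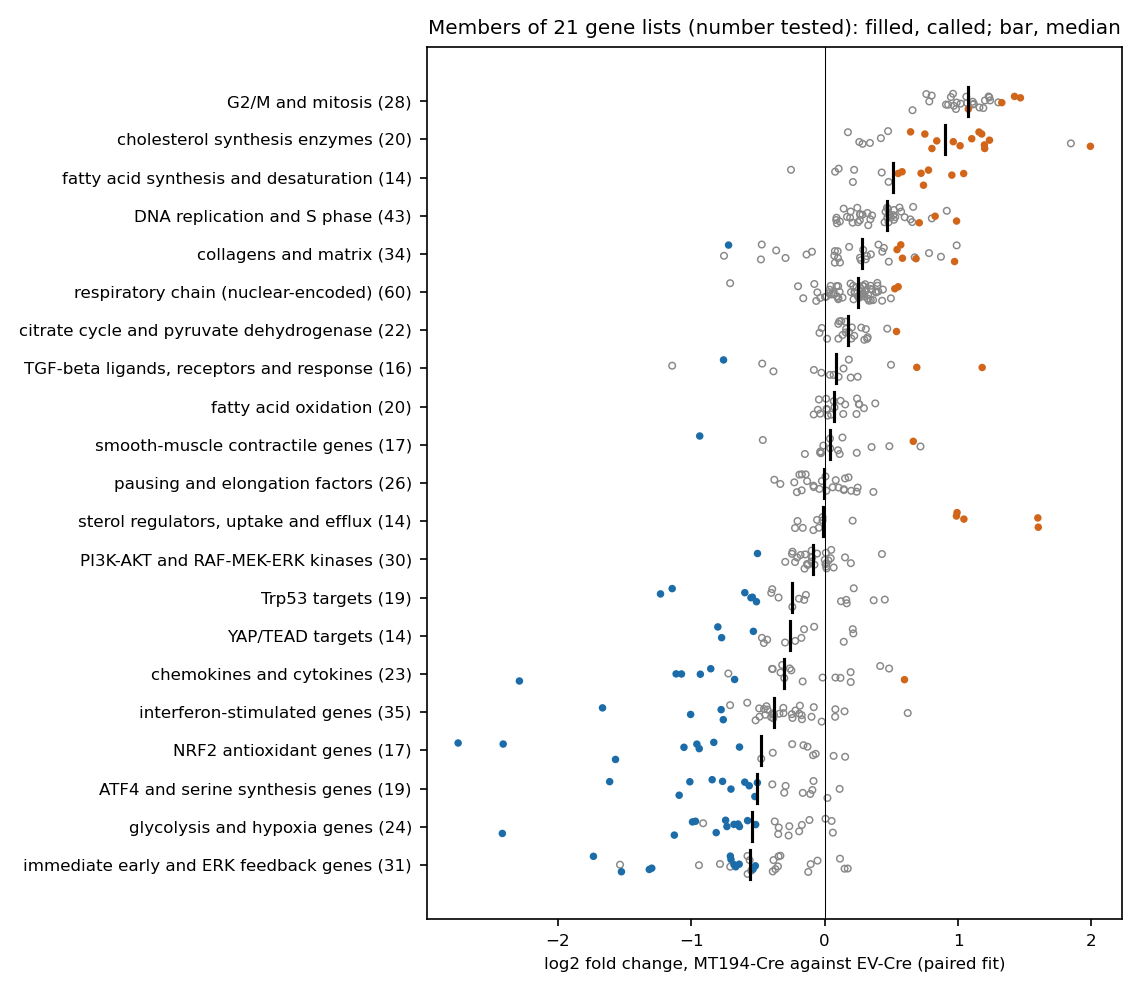
Each circle is a tested member of one of 21 gene lists (number tested in brackets), the x axis its log2 fold change of MT194-Cre against EV-Cre; filled circles were called (orange higher, blue lower), open ones not, and the black bar is the median. The G2/M and cholesterol synthesis lists have the highest medians and the immediate early list the lowest.

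Matrix and contractile genes did not follow one direction. Of 17 tested smooth-muscle contractile genes 1 was called in each direction (5.88%, beside 3.12% and 3.09% of all genes). Cnn1, the calponin, was called higher with 11.0 and 7.53 CPM in EV-Cre and 17.5 and 11.9 CPM in MT194-Cre (log2 fold change 0.67, SE 0.17, adjusted p = 0.0188, and 0.321 without the block), and Synpo2, an actin-bundling protein, lower with 4.23 and 4.14 CPM in EV-Cre and 2.08 and 2.31 CPM in MT194-Cre (log2 fold change -0.94, SE 0.20, adjusted p = 0.00615, and 0.0975 without the block). The list's median was 0.042. Acta2, smooth-muscle actin, stayed at 174 and 187 CPM in MT194-Cre, beside 134 and 123 CPM in EV-Cre and 17.8 and 15.9 CPM in EV-GFP (log2 fold change 0.49, adjusted p = 0.112). Of 16 TGF-beta genes 2 were called higher (12.5%) and 1 lower (6.25%), beside 3.12% and 3.09% of all genes. Tgfbi, a matrix protein induced by TGF-beta, had 84.4 and 90.5 CPM in EV-Cre and 158 and 251 CPM in MT194-Cre (log2 fold change 1.18, SE 0.13, adjusted p = 4.19e-05, and 0.202 without the block), and Pmepa1, a feedback inhibitor of the pathway, had 75.0 and 74.9 CPM in EV-Cre and 114 and 128 CPM in MT194-Cre (log2 fold change 0.69, SE 0.08, adjusted p = 7.12e-05, and 0.0287 without the block). Smad7, another feedback inhibitor, moved the other way with 87.3 and 92.9 CPM in EV-Cre and 51.7 and 55.0 CPM in MT194-Cre (log2 fold change -0.76, SE 0.15, adjusted p = 0.00397, and 0.127 without the block). The MT194-Cre levels of Tgfbi and Smad7 lay between those of EV-Cre and EV-GFP in both experiments. Pmepa1 had 56.64 and 59.98 CPM in EV-GFP and 62.99 and 58.49 CPM in WT-Cre, so MT194-Cre lay farther from both groups than EV-Cre did. In edgeR's paired fit Pmepa1 had a log2 fold change of 0.36 in EV-Cre against EV-GFP (adjusted p = 0.00176). In MT194-Cre against WT-Cre it was 0.99 (adjusted p = 9.76e-07).

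Of 34 collagen and matrix genes 5 were called higher (14.7%, beside 3.12% of all genes). In the other direction 1 was called lower (2.94%, near the 3.09% of all genes). The list's median was only 0.014 in experiment 1 but 0.52 in experiment 2. Col3a1, a fibrillar collagen, had 394 and 493 CPM in EV-Cre and 484 and 1418 CPM in MT194-Cre (log2 fold change 0.97, SE 0.27, adjusted p = 0.0363, and 0.502 without the block), and Col1a2, of type I collagen, had 1988 and 2902 CPM in EV-Cre and 2399 and 5935 CPM in MT194-Cre (log2 fold change 0.69, SE 0.19, adjusted p = 0.0284, and 0.747 without the block). In both genes MT194-Cre replicate 2 stood far above the 3 other libraries. Without that library the log2 fold changes were 0.40 (adjusted p = 0.274) and 0.30 (adjusted p = 0.298). Col11a1, a minor fibrillar collagen, had 52.1 and 71.3 CPM in EV-Cre and 67.9 and 123 CPM in MT194-Cre (log2 fold change 0.58, adjusted p = 0.000944, 0.785 without the block), and Col18a1, a basement membrane collagen, was lower with 38.6 and 51.2 CPM in EV-Cre and 19.5 and 36.4 CPM in MT194-Cre (log2 fold change -0.72, adjusted p = 0.0021, 0.549 without the block). Col18a1 had 37.7 and 56.2 CPM in EV-GFP, near its EV-Cre level, and 26.6 and 36.1 CPM in MT194-GFP. The other called increases, named after their values were seen, were Fbn1, fibrillin, with 0.57 and Mmp14, a membrane-bound metalloproteinase, with 0.54 on the log2 scale (adjusted p = 0.00281 and 0.0156).

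Among the 12 largest increases, genes outside the lists included several of development and cell surface. Col2a1, the cartilage collagen, had 1.44 and 2.45 CPM in EV-Cre and 9.39 and 10.7 CPM in MT194-Cre (log2 fold change 2.43, SE 0.33, adjusted p = 0.000485, and 0.158 without the block). Nrp2, a receptor of semaphorins and VEGF (mm10, chromosome 1 from 62703285 to 62818695), had 9.06 and 10.3 CPM in EV-Cre and 32.9 and 42.7 CPM in MT194-Cre (log2 fold change 1.96, SE 0.27, adjusted p = 0.00112, and 0.0806 without the block), which placed MT194-Cre within the range of EV-GFP (30.3 and 60.4 CPM). H19, an imprinted noncoding RNA, had 17.8 and 7.49 CPM in EV-Cre and 38.7 and 42.6 CPM in MT194-Cre (log2 fold change 1.78, SE 0.32, adjusted p = 0.00571, and 0.203 without the block). Pianp, a neural membrane protein, had 3.38 and 3.20 CPM in EV-Cre and 7.76 and 12.4 CPM in MT194-Cre (log2 fold change 1.58, SE 0.19, adjusted p = 8.54e-05, and 0.0665 without the block), and Depdc1b, a DEP-domain protein, had 3.56 and 1.13 CPM in EV-Cre and 9.39 and 4.14 CPM in MT194-Cre (log2 fold change 1.53, SE 0.36, adjusted p = 0.0152, and 0.271 without the block). Depdc1b in MT194-Cre of experiment 2 lay close to EV-Cre of experiment 1.

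Of the 12 largest increases, Col2a1, Unc5c and Syt13, besides Nelfb, lay above all libraries of both EV-GFP and WT-Cre. Col2a1 had 3.00 and 7.80 CPM in EV-GFP, 5.50 and 6.97 CPM in WT-Cre and 8.59 and 21.1 CPM in MT194-GFP. Unc5c, a netrin receptor, had 11.7 and 12.1 CPM in EV-Cre and 30.5 and 40.9 CPM in MT194-Cre (log2 fold change 1.56, SE 0.18, adjusted p = 8.4e-05, and 0.139 without the block), but 11.996 and 17.0 CPM in EV-GFP and 7.61 and 13.4 CPM in WT-Cre. Syt13, of the synaptotagmin family, had 1.44 and 2.59 CPM in EV-Cre and 7.08 and 8.04 CPM in MT194-Cre (log2 fold change 1.95, SE 0.31, adjusted p = 0.000811, and 0.192 without the block), with 0.836 and 3.22 CPM in EV-GFP and 2.44 and 3.29 CPM in WT-Cre. Syt13 was also high in MT194-GFP, at 4.34 and 9.89 CPM, whereas Unc5c had 11.9 and 18.8 CPM there.

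The other large decreases were of genes at low levels. Gpr35, a G protein-coupled receptor, had 4.37 and 5.65 CPM in EV-Cre and 1.06 and 0.915 CPM in MT194-Cre (log2 fold change -2.29, SE 0.34, adjusted p = 0.00049, and 0.127 without the block). Angptl6, a secreted angiopoietin-like protein, had 5.23 and 9.46 CPM in EV-Cre and 1.51 and 2.17 CPM in MT194-Cre (log2 fold change -1.98, SE 0.26, adjusted p = 0.000175, and 0.0348 without the block), and Ankk1, a kinase with ankyrin repeats, had 3.604 and 3.91 CPM in EV-Cre and 0.87 and 1.06 CPM in MT194-Cre (log2 fold change -1.96, SE 0.25, adjusted p = 0.000137, and 0.0133 without the block). In these 3 genes every MT194-Cre library was below every EV-Cre library, which their choice among the largest decreases made likely. Hspb8, a small heat shock protein, had 6.67 and 4.38 CPM in EV-Cre and 1.25 and 1.64 CPM in MT194-Cre (log2 fold change -1.94, SE 0.28, adjusted p = 0.000387, and 0.0975 without the block), and MT194-Cre was below EV-GFP too (4.47 and 2.73 CPM). Gch1, the first enzyme of tetrahydrobiopterin synthesis, had 12.3 and 10.6 CPM in EV-Cre and 4.31 and 2.79 CPM in MT194-Cre (log2 fold change -1.70, SE 0.21, adjusted p = 0.0001, and 0.0867 without the block).

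MT194-Cre was also compared with EV-GFP, the cells that keep the floxed allele, to see what remained different. These groups differ in virus too, and the comparison does not set the mutant apart from wild-type NELFB, which is compared below. Against EV-GFP, 1157 genes were called higher (8.38%) and 1205 lower (8.73%). Without the block these were 313 and 429. All 20 cholesterol synthesis enzymes and 9 of 14 fatty acid synthesis genes were called lower, 18 of 35 interferon-stimulated genes and 10 of 14 YAP/TEAD targets were called higher, and none of the 28 G2/M genes was called by edgeR in either direction (0 at an unadjusted p under 0.05; DESeq2 called 0 higher and 0 lower). The median of the G2/M list in MT194-Cre minus EV-GFP was 0.80 in experiment 1 and -0.50 in experiment 2, so the experiments lay on opposite sides of EV-GFP. The 3 largest increases were Acta2, with 3.42 on the log2 scale, Hist1h4h, a histone gene of the H4 family, with 3.15, and Cnn1, with 2.94. Hist1h4h had 0.787 and 0.634 CPM in EV-GFP and 6.51 and 6.16 CPM in MT194-Cre, and 6.17 and 4.43 CPM in EV-Cre, so the mutant left it at the EV-Cre level; copies of histone H4 are alike in sequence and its count is uncertain. The 3 largest decreases were Spib, an ETS factor, Anpep, an aminopeptidase of the cell surface, and Stk32b, a kinase, with log2 fold changes of -3.88, -3.69 and -3.65. Anpep had 44.4 and 45.9 CPM in EV-GFP, 2.97 and 3.63 CPM in EV-Cre and 1.89 and 5.54 CPM in MT194-Cre, beside 16.3 and 20.3 CPM in WT-Cre. Spib and Stk32b were likewise no higher in MT194-Cre than in EV-Cre beyond their spread (adjusted p = 0.747 and 0.698 by edgeR).

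The gene lists are set beside the loss and the wild-type rescue in the plot of list medians. EV-Cre against EV-GFP gave 1709 genes higher (12.4%) and 1793 lower (13%), and without the block 806 and 820. WT-Cre against EV-Cre gave 1534 higher (11.1%) and 1641 lower (11.9%), and without the block 537 and 481. These comparisons share the EV-Cre libraries with MT194-Cre against EV-Cre, so their values stand side by side and are not correlated. For the cholesterol synthesis enzymes the medians were -2.84 in EV-Cre against EV-GFP, 0.90 with MT194 and 2.28 with wild-type NELFB. For the NRF2 genes they were 0.57, -0.47 and -0.42, and for the hypoxia and glycolysis genes 0.74, -0.55 and -0.56. For the smooth-muscle genes they were 0.92, 0.042 and -0.53. The mutant and the wild type were also compared directly, in a contrast added after seeing the data. In MT194-Cre against WT-Cre, 834 genes were higher (6.04%) and 676 lower (4.9%), and without the block 77 and 114. Of the cholesterol synthesis enzymes 19 of 20 were lower (median -1.43). Of the smooth-muscle genes 7 of 17 were higher and 1 lower (median 0.48). Of the NRF2 genes 1 of 17, and of the hypoxia and glycolysis genes 4 of 24, were called, each higher (medians 0.074 and 0.064). Of the interferon-stimulated genes 0 of 35 were called (median -0.0057), and of the YAP/TEAD targets 6 of 14, each higher (median 0.385).

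**Figure D4:**
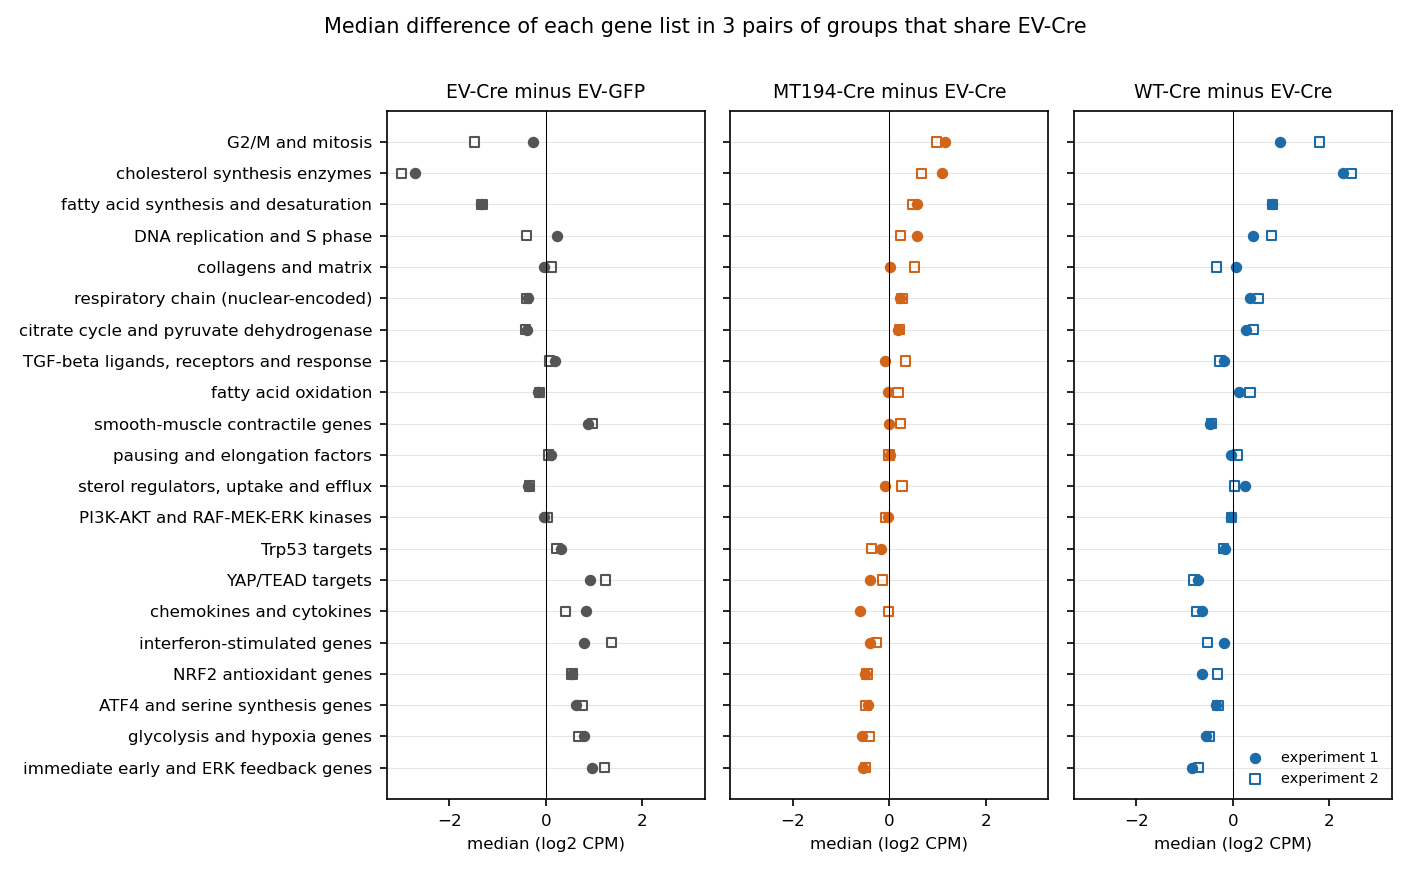
Median difference in log2 CPM of each of 21 gene lists (rows) for EV-Cre minus EV-GFP, MT194-Cre minus EV-Cre and WT-Cre minus EV-Cre; filled circles are experiment 1 and open squares experiment 2. The cholesterol synthesis enzymes lie lowest on the left, and the smooth-muscle list lies at or just above 0 with MT194 and below 0 with wild-type NELFB.

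To describe how far MT194 restored the genes that depend on NELFB without choosing and measuring them in the same libraries, genes were taken from one experiment and described in the other. In experiment 1, 319 genes with at least 5 CPM had EV-Cre more than 1 below EV-GFP in log2 CPM. In experiment 2 their median was -1.47 for EV-Cre minus EV-GFP, 0.50 for MT194-Cre minus EV-Cre and 1.12 for WT-Cre minus EV-Cre. MT194-Cre was above EV-Cre in 282 of them (88.4%, against 51.9% of all genes), and it remained -0.96 from EV-GFP. The reverse choice, 523 genes lower in EV-Cre in experiment 2, gave -1.02, 0.37 and 0.89 in experiment 1, with 411 genes above EV-Cre (78.6%, against 49.1% of all genes).

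Genes that were higher in EV-Cre were mostly lower with MT194. The 284 genes chosen in experiment 1 had medians of 1.47 for EV-Cre minus EV-GFP, -0.42 for MT194-Cre minus EV-Cre and -1.12 for WT-Cre minus EV-Cre in experiment 2. The 384 genes chosen in experiment 2 had 1.14, -0.54 and -0.87 in experiment 1. MT194-Cre was below EV-Cre in 82.4% and 91.1% of these genes, against 48.03% and 50.9% of all genes. In each of the 4 sets the median with MT194 lay between 0 and the median with wild-type NELFB. The median of MT194-Cre minus EV-Cre over all genes was -0.0064 in experiment 1 and 0.016 in experiment 2, and no test was made.

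**Figure D5:**
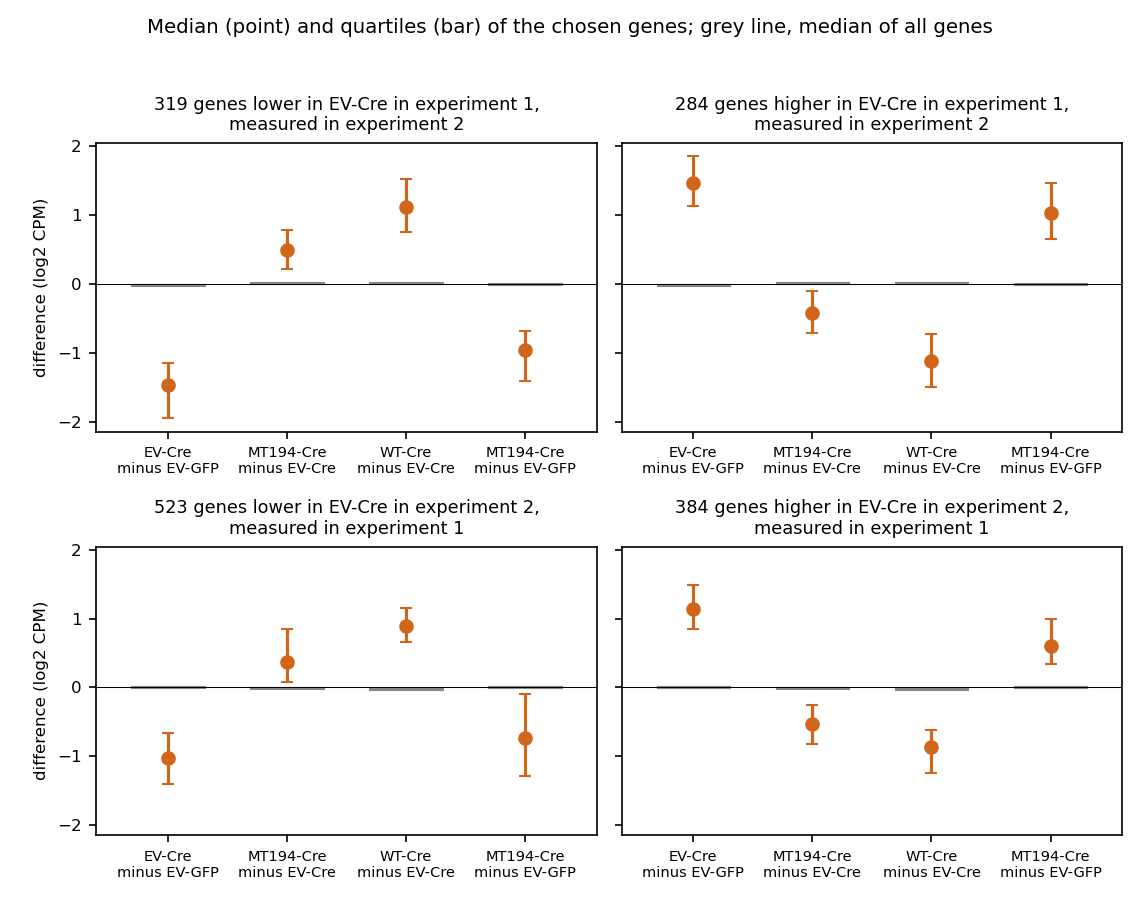
Each panel holds genes chosen by their EV-Cre minus EV-GFP difference in one experiment and measured in the other; points are medians in log2 CPM, bars run from the lower to the upper quartile over genes, and grey lines are medians of all genes. The MT194-Cre minus EV-Cre point lies nearer to 0 than the WT-Cre minus EV-Cre point in all 4 panels.

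In cells that kept the floxed allele, the number of genes called with MT194 depended on the fit. MT194-GFP against EV-GFP gave 9 genes higher (0.0652%) and 7 lower (0.0507%), and without the block none was called by edgeR, with 276 genes at an unadjusted p under 0.05. DESeq2 called 19 higher and 37 lower, and the paired fit on these 4 libraries alone 94 higher and 138 lower. By list, 1 of 35 interferon-stimulated genes and 3 of 23 chemokines and cytokines had a log2 fold change above 0 (median -0.58 and -0.31), beside a median of 0.0028 over all genes. In the other direction, 28 of 28 G2/M genes, 37 of 43 replication genes and 17 of 19 ATF4 genes were above 0 (medians 0.25, 0.23 and 0.22). Syt13 and Dkk3, a secreted WNT modulator, were among the 9 higher ones (log2 fold changes 1.81 and 0.71; adjusted p = 0.0314 and 0.0187); Dkk3 was chosen after its values were seen. Whether MT194 acted differently with and without the endogenous allele was tested as an interaction. The MT194 effect after Ad-Cre was above that after Ad-GFP for 63 genes (0.456%) and below it for 72 (0.522%), with 1 and 0 without the block. Slc7a11, Gsta4, Hmox1, Trib3, Plk2, Nsdhl, Scd1 and Tgfbi were among them, with effects after Ad-GFP from -0.11 for Tgfbi to 0.56 for Trib3, which did not pass the test (adjusted p = 0.913 and 0.671).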

How the data were processed

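The authors made the deposited read counts from poly(A)-selected, single-end RNA-seq by aligning to mm10 with Bowtie2, sorting with SAMtools, dropping alignments with a mapping quality under 30 and counting on 24421 genes with HTSeq; per the labels they used DESeq2 downstream. Whether strand was used in counting is not given in the sources used here. Reads on no gene were 15.5% and 18.8% in EV-Cre and 14.2% and 15.3% in MT194-Cre, and ambiguous reads 0.971% to 1.02%; both were left out. The 15 stable clones were not used.

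From the counts, TMM-scaled CPM, log2 CPM (prior count 2) and edgeR 4.0.16 quasi-likelihood tests (R 4.3.3, limma 3.58.1) were computed over 20 populations and the 13805 genes kept by filterByExpr, with 1 mean per group, the replicate number as an additive block (9 residual degrees of freedom) and Benjamini-Hochberg adjustment over all genes. Standard errors are the absolute log2 fold change over the square root of F. Steps were tested on simulated data. The study describes 2 independent experiments, and the replicate numbers pair the groups: the correlation of same-numbered deviations was over 0.1 in 45 of 45 pairs of groups (0.42 to 0.73; 0.666 for MT194-Cre with EV-Cre). Nothing says more of how the 2 samples of a group arose. The p-values of the paired fit measure the spread within groups, pooled over the 20 populations, that is left after the shared difference between experiments is removed. Alternatives were the fit without the block, DESeq2 1.42.0, DESeq2 size factors in edgeR, the compared libraries alone, no filter, other thresholds, and each library left out.

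Named genes were the NELF subunits, Actb, Fasn and Cdkn1a; the 12 largest called increases and decreases with the same direction in both experiments and a mean count of 50 or more; per list up to 4 called members with the largest change under the same count minimum, or the 2 most abundant where fewer than 2 were called; and the 3 largest changes in each direction against EV-GFP. Some genes that this rule takes are not reported here. The comparison, its gene lists and this rule were chosen with earlier results of these data known. Positions are from GENCODE on GRCm38 (mm10).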

Additional observations from a re-analysis of the deposited data

Results flagged for a closer look

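The effect of MT194 after Ad-Cre differed from its effect after Ad-GFP, by the interaction in edgeR's paired fit (adjusted p under 0.05 and an absolute log2 difference over 0.5), for the following of the genes named. Values are the log2 fold change of MT194-Cre against EV-Cre minus that of MT194-GFP against EV-GFP, with 2 libraries per group. Nelfb stood at 3.39 (SE 0.24, adjusted p = 1.48e-05).

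Among lipid and mitochondrial genes the differences were 1.18 for Hmgcs1, 1.16 for Nsdhl, 0.91 for Srebf2, 0.91 for Scd1, 0.96 for Elovl6, 0.73 for Fads2, 0.66 for Acsl3 and 0.62 for Ndufb11. Among surface, matrix and signalling genes they were 1.49 for Unc5c, 1.29 for Tgfbi, 1.15 for Pianp, 0.75 for Dkk3, 0.69 for Col11a1, 0.92 for Ccl5 and 0.66 for Pmepa1.

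Antioxidant genes gave -2.90 for Slc7a11, -2.50 for Gsta4, -2.41 for Gsta3, -1.60 for Hmox1, -1.31 for Nqo1, -1.06 for Srxn1, -1.01 for Txnrd1, -0.79 for Gclm and -0.71 for Gclc. Stress and growth-arrest genes gave -2.17 for Trib3, -1.07 for Ddit3, -1.27 for Atf3, -1.72 for Cdkn1a and -1.14 for Plk2. The others were Angptl6 with -2.58, Dusp4 with -1.78, Gch1 with -1.51 and Vegfa with -0.80. Without the block 1 gene of all those tested passed, and without EV-Cre replicate 2, 3 genes above and 13 below.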

How the results depend on the processing

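Most calls rested on the pairing. Without the replicate block, MT194-Cre against EV-Cre gave 11 genes higher and 20 lower, all among the 858; on the 4 libraries alone without the block, chosen after seeing the data, edgeR gave 0 and 0 (549 at an unadjusted p under 0.05). MT194-Cre against EV-GFP gave 313 and 429, MT194-GFP against EV-GFP 0 and 0 (276 at an unadjusted p under 0.05 by edgeR), the interaction 1 and 0, and MT194-Cre against WT-Cre 77 and 114 without the block. With the block and the compared libraries alone, the counts were 541 and 656 against EV-GFP, 94 and 138 for MT194-GFP, 8 and 24 for the interaction, and 381 and 355 against WT-Cre. DESeq2 gave 19 and 37 for MT194-GFP and 152 and 111 for the interaction, and 21 of 28 G2/M and 8 of 43 replication genes against 4 and 3 by edgeR; no filter gave 14 and 15 for MT194-GFP. At a log2 fold change over 1, the main comparison gave 103 and 149, that against EV-GFP 417 and 444, MT194-GFP 5 and 5, the interaction 14 and 31, and that against WT-Cre 273 and 176; with no threshold on size, 980 and 822 were called in the main comparison, 2183 and 2240 against EV-GFP, and 1570 and 1488 against WT-Cre.

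With each library left out in turn, the calls were 147 to 517 higher and 179 to 436 lower in the main comparison, 904 to 1125 and 1021 to 1399 against EV-GFP, 0 to 1 and 0 to 3 for MT194-GFP, 3 to 277 and 13 to 133 for the interaction, and 385 (without WT-Cre replicate 2) to 1024 and 483 to 725 against WT-Cre. Under a difference over 1.5, the genes lower in EV-Cre chosen in experiment 1 had a median of 0.61 with MT194, and those higher in EV-Cre -0.60 and -0.70.

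Medians of 6 to 8 of the 21 gene lists moved by more than the spread between experiments when 1 library was left out, and none of the 21 under the other settings.

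Reversals were confined to genes not called. The log2 fold change of Actb was -0.00059 without the block. Leaving out 1 library at a time gave -0.077 to 0.11 for Actb, -0.051 to 0.075 for Akt1, -0.15 to 0.048 for Cpt1a, -0.045 to 0.16 for Nelfa, -0.012 to 0.29 for Nelfcd and -0.63 to 0.60 for Anpep. Of 105 named genes, 90 were called. DESeq2 and its size factors each ended 1 of these calls, no filter 14, the compared libraries alone 4 and the fit without the block 79. Why these values moved was not tested.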

Other observations

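A few genes, chosen after their values were seen, differed between MT194-GFP and EV-GFP while the floxed allele was present. Fhl1, a LIM-domain protein of muscle, had 23.5 and 16.1 CPM in EV-GFP and 54.4 and 42.8 CPM in MT194-GFP, and 56.8 and 56.7 CPM in EV-Cre and 92.0 and 101 CPM in MT194-Cre, so that it was higher with MT194 after either virus. Tmod2, a tropomodulin that caps actin filaments, had 5.65 and 5.17 CPM in EV-GFP, 10.7 and 11.8 CPM in MT194-GFP, 6.49 and 5.60 CPM in EV-Cre and 14.6 and 11.7 CPM in MT194-Cre.

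Others had lower levels with MT194 after either virus within each experiment. Arap2, a GTPase-activating protein, had 12.8 and 9.65 CPM in EV-GFP, 4.82 and 3.28 CPM in MT194-GFP, 3.38 and 2.87 CPM in EV-Cre and 1.63 and 1.35 CPM in MT194-Cre. Sult1c2, a sulfotransferase, had 23.3 and 17.7, 10.5 and 5.72, 4.69 and 2.21 and 2.57 and 1.01 CPM in the same groups. For Fhl1 and Arap2 the log2 fold changes of MT194-Cre against EV-Cre were 0.77 and -1.07 (adjusted p = 0.011 and 0.0122 by edgeR, and 0.27 and 0.185 without the block). Both calls were also lost without EV-Cre replicate 1 and without EV-Cre replicate 2, that of Fhl1 without MT194-Cre replicate 2 and that of Arap2 without MT194-Cre replicate 1.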
